A study of Mus musculus with 12 samples.

Results

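The miR-302 cluster of the mouse is a run of hairpins for miR-302b, miR-302c, miR-302a, miR-302d and miR-367. The miRNAs described here are the 5p arms of the 4 miR-302 hairpins, mmu-miR-302a-5p, mmu-miR-302b-5p, mmu-miR-302c-5p and mmu-miR-302d-5p, together with every arm of miR-367 that was measured, mmu-miR-367-5p and mmu-miR-367-3p. They were chosen by name, and they make up 6 of the 1042 miRNAs measured. A miRNA hairpin is cut from its primary transcript by Drosha and opened by Dicer into a duplex of a 5p and a 3p arm, of which 1 arm is usually kept in Argonaute and the other is lost. The kept arm finds its targets mainly through its seed, bases 2 to 8. The cluster is transcribed as 1 primary transcript in pluripotent cells, where Oct4 and Sox2 bind its promoter. The 3p arms of miR-302 are known for promoting the embryonic cell cycle, and the 5p arms are the less studied strands of the same duplexes. miR-367-3p belongs by its seed to the miR-25 and miR-92 family.

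All 6 mature sequences were found in RefSeq (GRCm38.p6), and they are shown because their seeds sort them into groups. Capitals mark the seed.
mmu-miR-302a-5p: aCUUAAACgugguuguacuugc
mmu-miR-302b-5p: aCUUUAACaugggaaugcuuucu
mmu-miR-302c-5p: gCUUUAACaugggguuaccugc
mmu-miR-302d-5p: aCUUUAACauggaggcacuugcu
mmu-miR-367-5p: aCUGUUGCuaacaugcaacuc
mmu-miR-367-3p: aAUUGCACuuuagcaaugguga

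The 5p arms of miR-302b, c and d shared 1 seed, and no other miRNA of the table with a sequence had it (804 of the 1042 miRNAs had one). Against all 3 of these miR-302a-5p had the substitutions A5U and G9A, counted from 1 at the 5′ end with the base of miR-302a-5p first. It also differed from all 3 by U13G or U13A and by U14A or U14G. The A5U substitution lies in the seed. Over the shared length, 68.2% to 77.3% of the positions were the same in any pair of the 4 arms. The seed of miR-367-3p was also that of miR-25-3p, miR-32-5p, miR-363-3p, miR-92a-3p and miR-92b-3p, and miR-367-5p shared its seed with none.

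In GRCm38 the 5 hairpins lie on the plus strand of chromosome 3 within 580 bases, at chr3:127545228-127545807, with 43 to 65 bases between neighbours. They lie inside Larp7, a protein-coding gene on the minus strand (chr3:127536714-127553349), and none overlaps a Larp7 exon in GENCODE M21, so the position is intronic and antisense. The hairpins of miR-302b (chr3:127545228-127545301) and miR-302d (chr3:127545624-127545689) are shown for the place of their arms, which are in capitals, the 5p arm first.
Mir302b: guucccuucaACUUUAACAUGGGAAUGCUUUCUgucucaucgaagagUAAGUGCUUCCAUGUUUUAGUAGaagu
Mir302d: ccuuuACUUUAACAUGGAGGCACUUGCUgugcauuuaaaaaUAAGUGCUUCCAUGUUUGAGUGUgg

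Small RNA was sequenced from 12 libraries: 3 of mouse embryonic fibroblasts (MEFs), 3 of embryonic stem cells (ESCs), and 2 each of induced pluripotent stem cells (iPSCs), NT-ESCs and NT-iPSCs. The MEFs came from C57B6/129SvJae F1 mice, and the same MEFs gave rise to the iPSCs, NT-ESCs and NT-iPSCs, while the ESCs are the line E14 on a 129/ola background. iPSCs were made by a lentivirus that gives the 4 factors Oct4, Sox2, Klf4 and c-Myc under dox. For NT-ESCs a nucleus of a MEF, and for NT-iPSCs a nucleus of an iPSC, was placed in an enucleated oocyte, so NT-iPSCs also derive from cells with the lentivirus. Each type is 1 line, and its replicates are batches of RNA, so that p values cover the spread between batches and not between lines. The 4 pluripotent types were grown on irradiated MEFs with leukaemia inhibitory factor, and the labels do not say whether these feeder cells were removed.

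The authors scaled the reads by size factors and deposited them after a variance stabilizing transformation, as VST values in log2 units, from which whole reads could be recovered. A library held 4863365 to 8608689 miRNA reads, so that 3 reads, used as the floor for a lower bound, stand for a CPM (reads scaled to the miRNA reads of the library) of 0.348 to 0.617. A normalized read is a read divided by the size factor of its library, and intervals and floors cover counting error only. At 0 reads the VST is 0.59, and members with 1 read had a VST of 2.62 to 2.92, so a VST difference of a miRNA with a few reads is no fold change. A single limma model of the 12 libraries was fitted to the VST values, for the 732 miRNAs that reached 10 reads in 2 libraries or more. Their p values were adjusted by Benjamini-Hochberg, and an adjusted p under 0.05 is a call. Of the 6 members 5 reached this minimum and miR-367-5p did not. miR-302b-5p, miR-302c-5p and miR-302d-5p reached it only through the reprogrammed libraries, where they are highest, which favours their calls against ESCs and MEFs. miR-302b-5p and miR-302c-5p reached it only with the iPSC libraries, which also favours their calls between iPSCs and the nuclear transfer types. The calls of these arms and the counts below that include them are given as a description. Pluripotency markers matched the labels: the 14 arms of the miR-290 to miR-295 cluster summed to at least 556075 normalized reads in every pluripotent library and to at most 142 in a MEF library.

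The reprogrammed libraries stood apart from the MEF and ESC libraries in a measure that bears on every 5p arm. In 173 hairpins with at least 100 reads over their arms in each of the 12 libraries, the log2 ratio of 5p to 3p reads was compared between cell types. The median absolute difference was 0.59 between MEFs and ESCs and 0.33 to 0.45 between the 3 reprogrammed types. Between a reprogrammed type and either MEFs or ESCs it was 2.10 to 2.30, against 0.29 to 0.48 between replicates. This comparison was added after seeing the data. The study sources used here give no library batches, and cell type and library preparation cannot be told apart in any comparison of ESCs or MEFs with reprogrammed cells. For ESCs the same holds of mouse strain, also against MEFs, while MEFs and reprogrammed cells share theirs. Comparisons between MEFs and ESCs, and among iPSCs, NT-ESCs and NT-iPSCs, stay within a set.

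**Figure D1:**
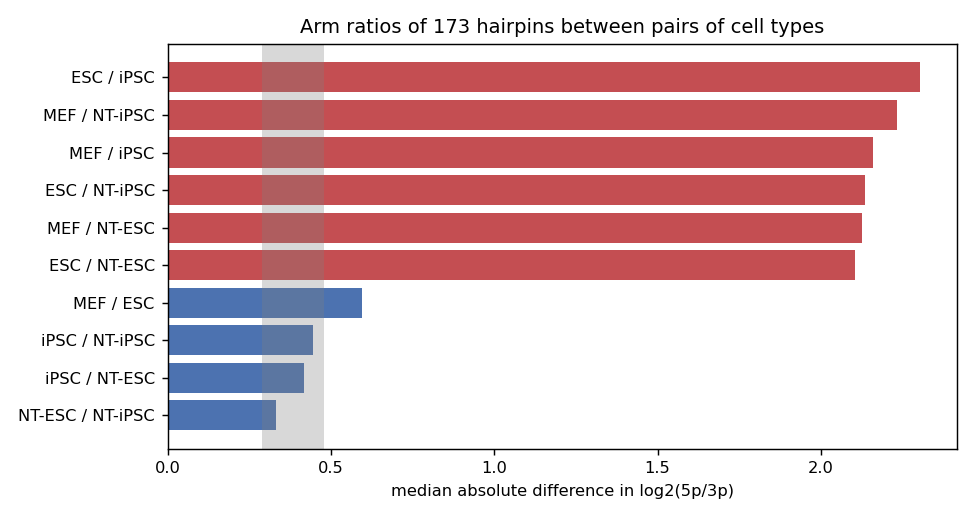
Bars give the median absolute difference in the log2 ratio of 5p to 3p reads over 173 hairpins between each pair of cell types (x axis, log2 units), red where a reprogrammed type is compared with MEFs or ESCs and blue elsewhere; the grey band is the range between replicates. The 6 red bars lie between 2.10 and 2.30, and the 4 blue bars at or below 0.59.

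miR-302a-5p was the most abundant member in every pluripotent library. It had 0, 0 and 2 reads in the MEF libraries. In normalized reads it stood at 184, 217 and 210 in the 3 ESC libraries. The 2 iPSC libraries held 2714 and 3284, the NT-ESC libraries 886 and 729, and the NT-iPSC libraries 1293 and 859. The order was MEFs, ESCs, NT-ESCs, NT-iPSCs and iPSCs, with overlap only between NT-ESCs and NT-iPSCs. Of the reads of the 6 members, its share was 81.2% ± 0.378 (SD, n = 3) in the ESC libraries and 91.9% ± 2.22 (SD, n = 6) in those of reprogrammed types. Among the 1042 miRNAs it ranked 325 to 340 by reads in ESC libraries and 125 to 214 in reprogrammed libraries.

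miR-302d-5p came next in reprogrammed cells. Its MEF libraries had 0 reads and its ESC libraries 2, 5 and 2. In normalized reads the iPSC libraries held 178 and 204, those of NT-ESCs 47.8 and 36.7, and those of NT-iPSCs 33.5 and 33.9. No range overlapped a neighbouring one. How many of all miRNAs separate in this way was not counted, here or for miR-302a-5p. iPSCs were at least 48.5-fold higher than the 3-read floor of the MEF libraries.

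The other 5p arms of the cluster were close to the limit of detection. miR-302b-5p had 0 reads in all 3 MEF and all 3 ESC libraries. It had 20 and 16 reads in the iPSC libraries, 6 and 4 in those of NT-ESCs, and 16 and 7 in those of NT-iPSCs. miR-302c-5p had 0 reads in MEFs, 1, 4 and 1 in ESCs, 73 and 15 in the iPSC libraries, 12 and 6 in those of NT-ESCs, and 8 and 2 in those of NT-iPSCs. The 73 and 15 reads came from iPSC libraries with 5293867 and 6088839 miRNA reads, in which the 3p arm of the same hairpin had 69 and 68 reads. ESCs and NT-iPSCs overlapped for miR-302c-5p, as did both nuclear transfer types.

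The arms of miR-367 were unequal in abundance. miR-367-3p had 0 reads in each MEF library and stood at 39.5, 40.04 and 46.6 normalized reads in ESCs. It reached 117 and 62.3 in iPSCs, and it was lower than in ESCs in NT-ESCs, with 21.5 and 17.5, and in NT-iPSCs, with 19.6 and 18.2. It was the member for which NT-ESCs and NT-iPSCs lay below ESCs. miR-367-5p had 0 reads in MEFs and ESCs, 6 and 3 in the iPSC libraries, 2 and 1 in those of NT-ESCs, and 1 and 1 in those of NT-iPSCs, and it was left out of the test by the minimum.

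**Figure D2:**
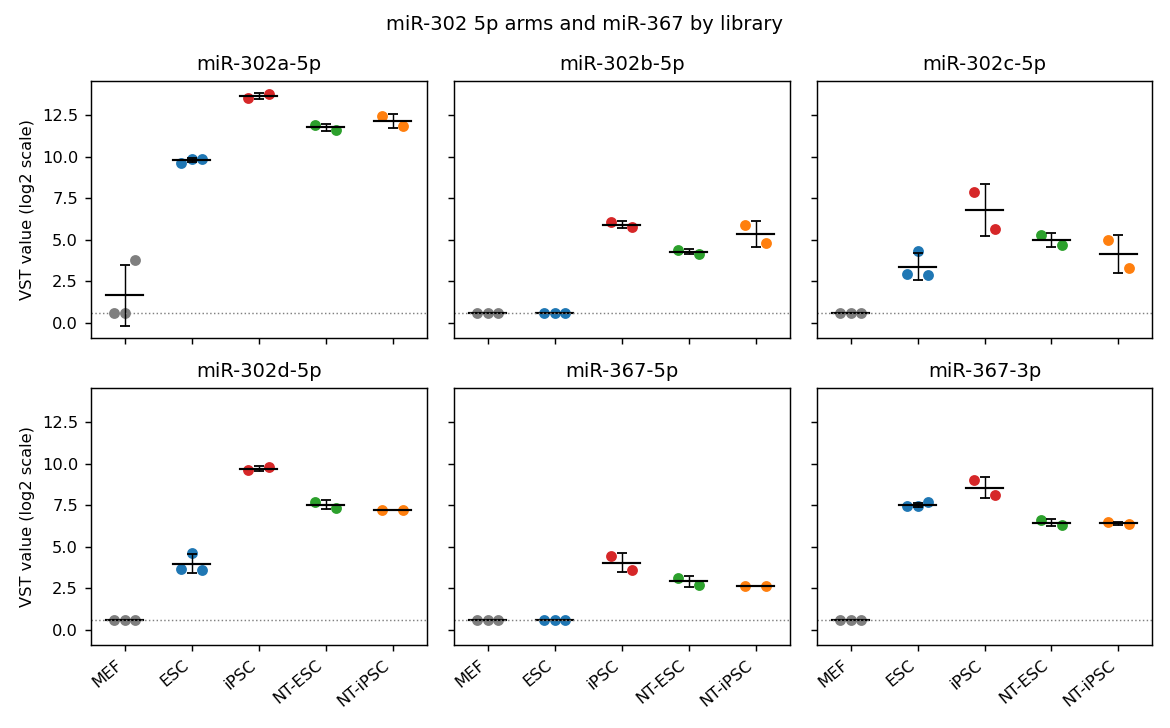
Each point is the VST value of 1 library (y axis, log2 scale) for a member, by cell type, with the mean as a line and the SD as bars; the dotted line is the VST of 0 reads. MEF points lie on that line except for miR-302a-5p in 1 library with 2 reads, and both iPSC points of miR-302a-5p, miR-302d-5p and miR-367-3p lie above those of every other type.

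MEFs against ESCs compares a differentiated with a pluripotent type, which also differ in mouse strain. Of the 5 tested, 4 were lower in MEFs, where 39.9% of all 732 miRNAs were lower. miR-302a-5p differed by -8.13 (standard error 0.68, adjusted p = 6.0e-07, limma), with 574 reads in all over the ESC libraries and 2 over the MEF libraries. miR-367-3p differed by -6.94 (adjusted p = 4.0e-09) and was at least 10.7-fold higher in ESCs than the MEF floor. The calls of miR-302c-5p and miR-302d-5p rest on 6 and 9 ESC reads in all, against 0, and miR-302b-5p had 0 reads in both types. Against the mean of the 4 pluripotent types all 5 tested members were lower in MEFs, where 46.7% of all miRNAs were. With voom on the recovered reads the call of miR-302c-5p between MEFs and ESCs was lost (adjusted p = 0.0758).

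Each reprogrammed type was then compared with ESCs, the comparison that crosses the sets of libraries. Against ESCs, 5 of 5 tested members were higher in iPSCs, where 39.8% of all miRNAs were higher. In NT-ESCs 3 were higher and 1 was lower (39.8% and 36.1% of all miRNAs), and in NT-iPSCs 3 were higher and 1 was lower (41.1% and 36.5%). For the mean of the 3 types 4 of 5 were higher, where 44.0% of all miRNAs were. The 3 comparisons share the ESC libraries.

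Among the 5p arms of miR-302, miR-302a-5p was 14.7-fold higher in iPSCs than in ESCs by the ratio of mean normalized reads, a VST difference of 3.87 (standard error 0.76, adjusted p = 0.000654, limma). It was 3.96-fold higher in NT-ESCs (VST difference 1.98, adjusted p = 0.0325) and 5.28-fold higher in NT-iPSCs (2.37, adjusted p = 0.0140). In the main model its standard error includes the MEF library with 2 reads. The call in NT-ESCs was lost in each of the 5 fits that left out a library (differences from 1.84 to 2.12), and that in NT-iPSCs without NT-iPSC replicate 51 (adjusted p = 0.0912). A fit of the 9 pluripotent libraries, chosen after seeing the data, gave the same differences with adjusted p from 2.0e-07 to 1.8e-05.

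The VST difference of miR-302d-5p in iPSCs against ESCs was 5.73 (standard error 0.39, adjusted p = 9.6e-08, limma). By pooled normalized reads that is a ratio of 59.6, with a counting interval from 31.2 to 131 (exact, 95%), since ESCs had 9 reads in all. The ratio was 13.4 in NT-ESCs (6.81 to 30.1) and 10.5 in NT-iPSCs (5.28 to 23.8), with VST differences of 3.57 and 3.26 (adjusted p = 6.2e-06 and 1.3e-05). Its values in reprogrammed libraries, through which it reached the minimum, lay above those of all ESC libraries.

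miR-302b-5p, at 0 reads in ESCs, was higher in all 3 types by limma (adjusted p from 2.4e-06 to 5.7e-05), and iPSCs were at least 3.90-fold, NT-iPSCs at least 2.79-fold and NT-ESCs at least 1.13-fold above the floor of the ESC libraries. miR-302c-5p passed in iPSCs (VST difference 3.39, adjusted p = 0.00173, limma), with a ratio of 15.1 and a counting interval from 6.67 to 42.3, which does not cover the spread between 73 and 15 reads. The difference was 2.28 without iPSC replicate 62 and 4.50 without iPSC replicate 63, and both passed. Its differences in NT-ESCs, 1.60 with a confidence interval from -0.08 to 3.28, and in NT-iPSCs, 0.76 with an interval from -0.92 to 2.44, did not pass (adjusted p = 0.0755 and 0.377). That in NT-ESCs passed with only the groups compared (adjusted p = 0.0457) and without ESC replicate 3 (2.08, adjusted p = 0.0354). The ratio of 1.93 in NT-iPSCs rests on 10 reads against 6.

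miR-367-3p did not follow the 5p arms of miR-302. It was 2.13-fold higher in iPSCs than in ESCs (VST difference 1.01, standard error 0.34, adjusted p = 0.0189, limma). In NT-ESCs it was 2.16-fold lower and in NT-iPSCs 2.22-fold lower (VST differences -1.09 and -1.12, adjusted p = 0.0136 and 0.0117). For the mean of the 3 types the difference was -0.40 (adjusted p = 0.188). The call in iPSCs was lost with TMM-type scaling (adjusted p = 0.0510) and without ESC replicate 2 (0.0504), and without iPSC replicate 62 the difference fell to 0.56 (0.218). The calls of NT-ESCs and NT-iPSCs were lost without NT-ESC replicate 72 (adjusted p = 0.0861) and without NT-iPSC replicate 52 (0.0552).

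Within its seed family, miR-367-3p was a small part. It made up 0.165% to 0.180% of the reads of the 6 miRNAs with its seed in ESC libraries, 0.0297% and 0.0507% in the iPSC libraries, and 0.00671% to 0.00938% in those of NT-ESCs and NT-iPSCs. The family as a whole had 19431 to 24305 reads in ESC libraries and 252217 to 351612 in reprogrammed libraries, a comparison that crosses the sets, so the lower share came with a larger total. The most abundant of that family was miR-92a-3p in the ESC libraries and miR-25-3p in the reprogrammed libraries.

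All members summed to a CPM of 41.3, 46.1 and 47.8 in the ESC libraries. The iPSC libraries summed to 793 and 802, those of NT-ESCs to 185 and 145, and those of NT-iPSCs to 223 and 153. The mean of the reprogrammed types exceeded ESCs by 2.68 on the log2 scale. Because miR-302a-5p holds most of the sum, the difference was also taken without it and was 1.42, an alternative added after seeing the data. What is left in ESCs is mostly miR-367-3p, with 118 reads in all, against 9 of miR-302d-5p and 6 of miR-302c-5p. The VST difference for the mean of the 3 types was -0.40 for miR-367-3p. For the other 5p arms of miR-302 it was 1.91 (miR-302c-5p), 4.19 (miR-302d-5p) and 4.59 (miR-302b-5p).

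The 3 reprogrammed types, which lie in the same set of libraries, differed in another way. Compared with the mean of NT-ESCs and NT-iPSCs, all 5 tested members had higher means in iPSCs, and 3 passed the test, where 14.1% of all miRNAs were higher. These were miR-302c-5p (VST difference 2.21, adjusted p = 0.0422, limma), miR-302d-5p (2.32, standard error 0.37, adjusted p = 0.000891) and miR-367-3p (2.12, standard error 0.33, adjusted p = 0.000788). The difference of miR-302a-5p was 1.70, with a confidence interval from 0.12 to 3.28 (adjusted p = 0.0975), and that of miR-302b-5p 1.09, from -0.003 to 2.18 (adjusted p = 0.121). miR-302a-5p passed with log2 of normalized reads plus 1 (adjusted p = 0.00937), with voom (9.8e-06), with only the groups compared (0.00883) and in the fit of the 9 pluripotent libraries (0.000395), in which miR-302c-5p did not (0.0558). miR-302b-5p passed with voom (0.0279), which called all 5 tested members higher, where 23.4% of all miRNAs were. The call of miR-302c-5p was also lost with upper quartile (0.0518) and TMM-type scaling (0.0503) and with only the groups compared (0.101). It was lost without NT-ESC replicate 71 (adjusted p = 0.0646), NT-ESC replicate 72 (0.0995) or NT-iPSC replicate 52 (0.101), and without iPSC replicate 62, the library with its 73 reads, the difference was 1.10 (0.379).

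Type by type, NT-ESCs were lower than iPSCs for 2 of 5 members, miR-302d-5p and miR-367-3p, where 13.1% of all miRNAs were lower. NT-iPSCs were lower for 3 of 5, these and miR-302c-5p, where again 13.1% were. In NT-ESCs the difference of miR-302c-5p was -1.79 (adjusted p = 0.146, limma), and it ran from -2.90 to -0.68 with 1 library left out. For NT-ESCs 4 of 5 were lower with voom, where 18.4% of all miRNAs were, in the fit of the 9 pluripotent libraries (16.7%), with log2 of normalized reads plus 1 (15.3%) and with only the groups compared (10.2%). The added members were miR-302a-5p (adjusted p = 0.000600 in the fit of the 9 libraries) and miR-302b-5p (0.0440), the latter an arm that reached the minimum only with the iPSC libraries. The call of miR-302c-5p in NT-iPSCs was lost without iPSC replicate 62 (adjusted p = 0.268), without NT-iPSC replicate 52 (0.239), in the fit of the 9 pluripotent libraries (0.0536) and with only the groups compared (0.179), and with only those groups miR-367-3p was lost as well (0.0501). In NT-iPSCs miR-302a-5p passed with log2 of normalized reads plus 1 (adjusted p = 0.0358), with voom (0.000128), with only the groups compared (0.0448) and in the fit of the 9 pluripotent libraries (0.00142). Mean normalized reads of miR-302a-5p were 3.71-fold higher in iPSCs than in NT-ESCs and 2.79-fold higher than in NT-iPSCs. For miR-302d-5p the ratios were 4.52 and 5.66, and for miR-367-3p 4.59 and 4.73. Between NT-iPSCs and NT-ESCs 0 of 5 members passed in limma, where 12.8% of all miRNAs differed, and 0 of 5 had an unadjusted p under 0.05. The voom fit also called 0, where it called 23.5% of all miRNAs. The differences ran from -0.84 for miR-302c-5p to 1.07 for miR-302b-5p, and that of miR-302a-5p was 0.39 with an interval from -1.43 to 2.22, so that a change of several fold lay inside the interval.

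The 3p arms of the same 4 hairpins are the partners of these strands. The seed was AAGUGCU in miR-302b-3p and miR-302d-3p and AGUGCUU in miR-302c-3p, and no sequence of miR-302a-3p was found. Between iPSCs and the mean of both nuclear transfer types the 3p arms differed by 2.11 to 2.50, and 3 of 4 passed, where 14.1% of all miRNAs were higher. Between reprogrammed cells and ESCs their differences ran from -1.73 for miR-302b-3p, which was lower (adjusted p = 0.0191, limma), to 4.30 for miR-302d-3p (adjusted p = 6.5e-09). Of the 4, 2 were higher and 1 was lower, where 44.0% of all miRNAs were higher and 38.0% lower.

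**Figure D3:**
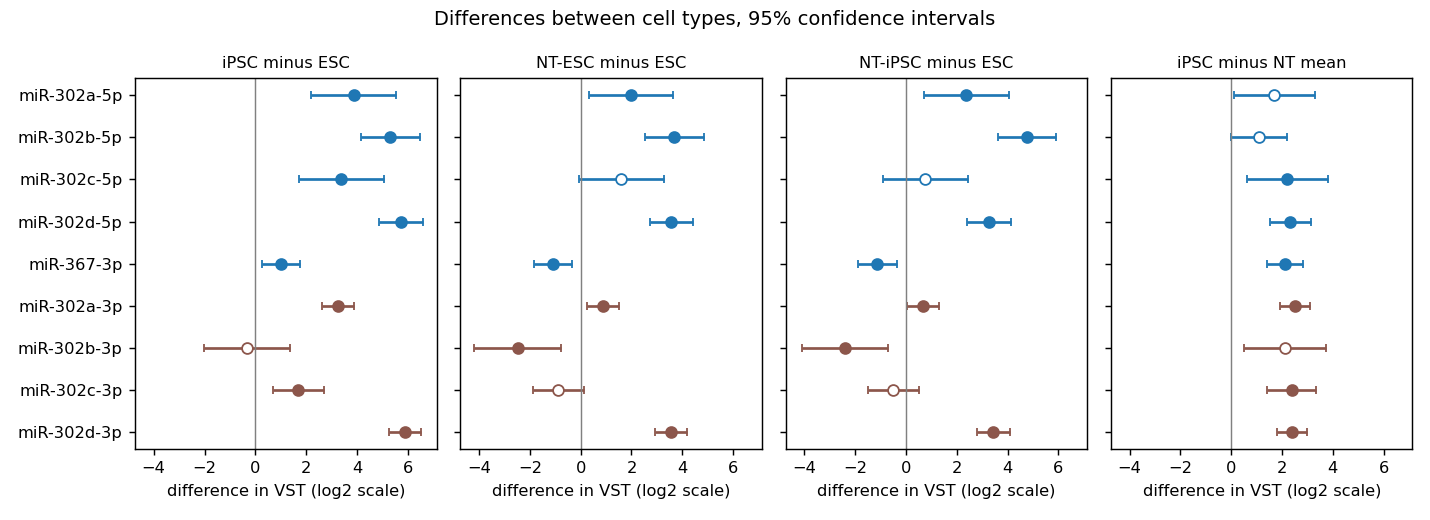
Points give the difference in VST between cell types (x axis, log2 scale) with 95% confidence intervals from limma, blue for members and brown for the 3p arms of miR-302; filled points have an adjusted p under 0.05, and NT mean is the mean of NT-ESC and NT-iPSC. In the right panel all 9 points lie between 1.09 and 2.50, while in the 3 panels against ESC they spread from -2.48 to 5.89.

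Markers of other cells moved with the difference between iPSCs and the nuclear transfer types. The 9 fibroblast miRNAs of the list, among them both arms of miR-199a and miR-145, summed to 49532 and 50827 normalized reads in the iPSC libraries. The sum was 168105 to 177693 in NT-ESCs, 199067 to 230112 in NT-iPSCs, 210192 to 242155 in ESCs and at least 593521 in MEFs, and none of the 9 was at 0 in any type. Against ESCs, which crosses the sets, 4 of the 9 were higher and 5 lower in the mean of the reprogrammed types. Of all miRNAs 44.0% were higher and 38.0% lower there. The differences ran from -4.22 for miR-143-3p to 3.66 for miR-199a-3p, so near-equal sums do not mean equal levels of each arm. Of the 9, 8 were lower in iPSCs than in the nuclear transfer mean, where 14.6% of all miRNAs were, with a median difference of -1.81. Their part in the result was not tested, and fewer cells of a type and less RNA per cell cannot be told apart in these bulk samples. Of the 14 arms of the miR-290 to miR-295 cluster, the other early embryonic cluster, 0 were higher and 2 lower in iPSCs in the same comparison, with a median of -0.33. miR-290-5p differed by -0.55 (adjusted p = 0.559, limma), miR-291a-5p by -0.33 (0.845), miR-294-5p by 0.02 (0.944) and miR-295-5p by -0.74 (0.00841). In reprogrammed cells against ESCs this cluster had 7 of 14 arms higher and 2 lower, where 44.0% of all miRNAs were higher and 38.0% lower.

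The arms of a hairpin come from the same duplex, and their ratio within a library needs no scaling. In ESCs the 5p arm held 78.7% ± 1.64 (SD, n = 3) of the reads of miR-302a, 11.9% ± 8.41 of miR-302c and 11.3% ± 3.78 of miR-302d. It held 0 of 662 to 726 reads of miR-302b and 0 of 35 to 43 reads of miR-367 per library. In the reads of the ESC libraries miR-302a was thus the hairpin of the cluster with mostly its 5p arm, and the others had mostly the 3p arm.

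In reprogrammed cells the 5p share was 88.7% ± 3.53 (SD, n = 6) for miR-302a, 3.68% ± 1.96 for miR-302b, 35.8% ± 16.8 for miR-302c, 12.01% ± 1.71 for miR-302d and 4.37% ± 0.960 for miR-367. Tested as the log2 ratio of 5p to 3p reads (0.5 added to each; limma over all hairpins with at least 10 reads in each pluripotent library), the ratio was higher than in ESCs for 4 of 5 hairpins. It rose by 1.14 for miR-302a (adjusted p = 0.000576), by 5.65 for miR-302b (1.0e-07), by 1.83 for miR-302c (0.0387) and by 2.21 for miR-367 (5.8e-06). For miR-302d it differed by -0.08, with a confidence interval from -0.65 to 0.49 (0.773), but with 5 added to each arm it was lower, at -1.01 (adjusted p = 0.000834). Of all hairpins tested 78.6% passed in either direction, 103 toward the 5p arm and 129 toward the 3p arm, with a median absolute difference of 2.31, so a change in this ratio was the rule and not particular to the cluster. The values of miR-302b and miR-367 rest on 5p arms at 0 reads in ESCs and depend on the number added: with 5 added, miR-367 did not pass (0.44, adjusted p = 0.0614). The call of miR-302c was lost under 5 added (adjusted p = 0.0858) and in 6 of the 9 fits that left out a library, with differences from 1.29 to 2.32 over the 9.

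The 5p share of miR-302d was 8.70% to 15.6% in the ESC libraries, with 21 to 32 reads each, and 9.23% to 13.9% in the reprogrammed libraries, with 296 to 2569 reads each. Both of its arms were about 28.3-fold higher in reprogrammed cells than in ESCs by mean normalized reads. Between iPSCs and the nuclear transfer mean 0 of 5 hairpins and 0% of all hairpins tested passed for the arm ratio (limma), and 3 of the 5 and 45 of all had an unadjusted p under 0.05. The 5p share of miR-302a was 84.8% ± 1.42 for iPSCs, 88.8% ± 1.84 for NT-ESCs and 92.3% ± 0.883 for NT-iPSCs (each the SD of 2 libraries).

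**Figure D4:**
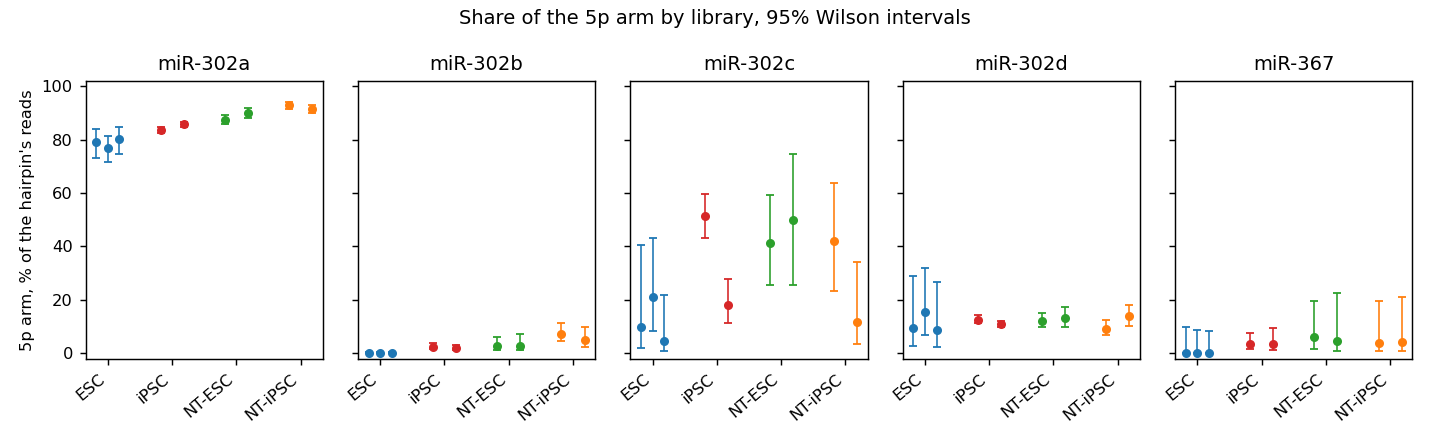
Points give the share of the 5p arm in the reads of each hairpin (y axis, percent) for every pluripotent library, with 95% Wilson intervals for counting error, coloured by cell type. miR-302a lies at 76.95% or above in every library, miR-302b at 7.14% or below, and the intervals of miR-302c are wide because most libraries hold 10 to 29 reads of it.

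The miRNAs outside the cluster whose VST values were most like those of miR-302a-5p over the 12 libraries were miR-1195 (Pearson's r = 0.988), miR-291b-5p (0.979) and miR-200a-3p (0.977), out of 723. Over the 9 pluripotent libraries they were miR-667-3p (0.992), miR-329-5p (0.992) and miR-434-3p (0.989). The libraries share 5 lines and 2 sets, so that r follows a few group means. Over the same 9 libraries, r to miR-302a-5p was 0.993 for miR-302d-3p, 0.980 for miR-302d-5p, 0.956 for miR-302b-5p, 0.892 for miR-302a-3p and 0.794 for miR-302c-5p. It was 0.471 for miR-302c-3p, 0.223 for miR-367-3p and -0.29 for miR-302b-3p. Over the 12 libraries, MEFs included, r was 0.870 for miR-302b-3p and 0.931 for miR-367-3p, and from 0.752 to 0.978 for all 8 other arms of the cluster that were tested.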

How the data were processed

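The values the authors deposited are VST values in log2 units, 1 for each miRNA in each library, made from miRNA reads after removal of adaptors and contaminants, with DESeq named in the submitters' processing notes along with the genome build mm8. The aligner and the miRBase release are not given in the sources used here. The table holds no coordinates, and positions and sequences are those of GRCm38. Inverting the transformation gave whole numbers of reads, within 0.05 read, for 100% of 9458 nonzero values (largest deviation 0.00356).

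Values were tested with limma 3.58.1 in R 4.3.3 (trend, 1 mean per cell type), and summaries were made with Python 3.11.15 and scipy 1.17.1. The members were fixed by name, and the miRNAs named beside them were the 3p partners, up to 4 arms of the miR-290 cluster, and the 3 miRNAs with the highest r to miR-302a-5p over 12 and over 9 libraries. Members, lists and tests were chosen with earlier results of these data known. The procedure was tested on simulated data. Alternatives were upper quartile and TMM-type scaling, no filter, a minimum of 100 reads throughout a group, log2 of normalized reads plus 1, voom, the compared groups alone, and each library left out. The count tests of edgeR were planned only for deposited raw counts and were not run, although whole reads could be recovered and were used for voom.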

Additional observations from a re-analysis of the deposited data

Results flagged for a closer look

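The difference from ESCs was not the same in all reprogrammed types for miR-302d-5p and miR-367-3p, by the limma test between the types themselves. miR-302d-5p was -2.17 in NT-ESCs against iPSCs (adjusted p = 0.00404) and -2.47 in NT-iPSCs against iPSCs (0.00169). miR-367-3p, which was higher than ESCs in iPSCs and lower in both nuclear transfer types, was -2.10 in NT-ESCs against iPSCs (0.00275) and -2.13 in NT-iPSCs against iPSCs (0.00206). miR-302c-5p was -2.63 in NT-iPSCs against iPSCs (0.0385), but it reached the read minimum only with the iPSC libraries, which held 73 and 15 reads. With 1 library left out its difference ran from -3.74 to -1.52. The call was lost without iPSC replicate 62 (difference -1.52) and without NT-iPSC replicate 52 (-1.80). At the same difference of -2.63, it was also lost in the fit of the 9 pluripotent libraries (adjusted p = 0.0536, limma) and with only the groups compared (0.179). The call is given as a description.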

How the results depend on the processing

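A minimum of 100 reads throughout a group left 2 members tested, and moved the count of members called to 2 in the comparisons with MEFs and ESCs and to 1 for NT-ESCs against iPSCs, NT-iPSCs against iPSCs and iPSCs against the nuclear transfer mean. This minimum left 498 miRNAs, and the share of them called was not counted. For NT-ESCs against iPSCs the count was 4 with log2 of normalized reads plus 1, with voom, with only the groups compared and in the fit of the 9 pluripotent libraries, and for iPSCs against the nuclear transfer mean it was 5 with voom, which also called more of all miRNAs (23.4% against 14.1% higher). The arm ratio was called for 2 hairpins against ESCs with at least 30 reads, and for 2 between iPSCs and the nuclear transfer mean with 5 added to each arm. The share of all hairpins called was counted for neither setting. The cause of these changes was not tested beyond the fewer members that the minimum leaves.

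With each library left out in turn, the counts of members called ran from 4 to 5 for iPSCs, 2 to 4 for NT-ESCs and 3 to 4 for NT-iPSCs against ESCs. The low count of 2 came without NT-ESC replicate 72. They ran from 2 to 3 for NT-ESCs against iPSCs, for NT-iPSCs against iPSCs and for iPSCs against the nuclear transfer mean, and from 3 to 4 for the arm ratio against ESCs. The summed level of the members exceeded ESCs by 2.59 to 2.77. Differences that changed sign were near 0 or rested on few reads, and none had passed the test: miR-302c-5p in NT-iPSCs against ESCs (-0.068 to 1.58), miR-367-3p in NT-iPSCs against NT-ESCs (-0.18 to 0.11), the arm ratio of miR-302d against ESCs (-0.23 to 0.16), and between iPSCs and the nuclear transfer mean the arm ratios of miR-302c (-1.26 to 0.97) and miR-302d (-0.22 to 0.11). miR-302a-5p in NT-ESCs against ESCs did not pass in any of these 5 fits, with differences from 1.84 to 2.12. With 1 library left in a type, that library is assumed to vary like the others. No paired analysis was possible because the groups share no replicate numbers. Depth limits miR-302b-5p, miR-302c-5p and miR-367-5p, for which 1 or 2 reads move a value.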
